A study of Mus musculus with 8 samples.

Results

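The 10 genes described here encode calcineurin, its protein inhibitors and the NFAT family of transcription factors (Nfatc1, Nfatc2, Nfatc3, Nfat5, Ppp3ca, Ppp3cb, Ppp3cc, Ppp3r1, Rcan1 and Cabin1). They were picked by symbol from the 23183 genes listed for each library, by their known roles and not by a cut on their values, though with earlier results of these libraries known, and all 10 were among the 12239 genes with enough counts to be tested. The libraries were bulk poly(A) RNA sequencing of ILC2s, group 2 innate lymphoid cells, grown from the lungs of wild-type mice, labelled C57BL/6 and named C57BL/6 J in the methods. The methods describe cells enriched from mice given IL-33 and kept in IL-2, IL-7 and IL-33, so both groups carried that stimulation. They give mice aged 6 to 10 weeks, of both sexes, with the data of the sexes pooled. Then 4 samples received 5 µM Yoda1, a chemical agonist of the mechanosensitive calcium channel Piezo1, for 3 h, and the other 4 received the vehicle, 0.1% DMSO. The sources do not say if replicates were separate mice or separate cultures, so each p-value measures only the spread between these samples, which may be technical. The comparison asks how RNA from the calcineurin and NFAT genes stood after 3 h of Piezo1 activation.

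Calcineurin is a phosphatase that is switched on by calcium and calmodulin. It is built from a catalytic A subunit, encoded by Ppp3ca, Ppp3cb or Ppp3cc, and a regulatory B subunit that binds calcium, encoded by Ppp3r1. It strips phosphate from NFATc1, NFATc2 and NFATc3, which then enter the nucleus and switch on cytokine and activation genes together with partners such as AP-1. NFAT5 shares the DNA-binding domain of the family but lacks the calcineurin docking region and is best known for its response to osmotic stress. Rcan1 and Cabin1 encode proteins that bind calcineurin and hold it back, and the short form of Rcan1 is a classical NFAT target gene.

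Total counts ran from 12438009 to 19534653 per library. Values below are normalized CPM, which put the counts of all libraries on the same depth with TMM factors, and are given in the order of replicates 1 to 4. The factors did not overlap between groups, at 1.003 to 1.010 with DMSO and 0.988 to 0.997 with Yoda1. The median log2 fold change over all genes was -0.0053 with them and -0.027 with library size only. Replicates of a group differed by more than sampling noise in every pair (chi-square per degree of freedom from 2.04 to 6.94), so all 8 libraries were kept. The 12 ILC2 markers checked were all above 3 counts in every library. Their summed CPM was 9179 to 9637 with DMSO and 9764 to 10241 with Yoda1. By the test, 4 of these markers were higher and 1 lower, or 41.7%, where 10.9% of all genes passed. Of the T cell markers, 0 of 6 were called by edgeR, DESeq2 or limma-voom. Of these 6, 1 had an unadjusted p under 0.05, a count not tested against all genes. The T cell markers summed to 69.8 to 77.5 CPM with DMSO and 75.2 to 84.8 with Yoda1. The NK cell list of 5 genes summed to 380.3 to 426 CPM with DMSO and 397 to 442 with Yoda1, with Eomes higher in Yoda1 (edgeR adjusted p = 0.0111). Most of that sum was Gzma, with means of 344 CPM with DMSO and 361 with Yoda1 (edgeR adjusted p = 0.281). Ncr1 (4.42 to 3.70 CPM) and Klrb1c (6.07 to 5.28 CPM) had lower means with Yoda1, and Klra8 (8.58 to 9.89 CPM) a higher one. Ncr1, Klrb1c and Klra8 did not pass (edgeR adjusted p = 0.432, 0.300 and 0.249). The macrophage and the mast cell or basophil lists each summed to 5.54 CPM or less, and the B cell markers Ms4a1 and Pax5 and the markers Lyz2, Csf1r, Mrc1, Fcer1a and Mcpt4 were at or under 3 counts in every library. Another B cell marker, Cd79b, was detected, at 5.97 ± 0.762 CPM with DMSO and 6.30 ± 0.780 with Yoda1 (edgeR adjusted p = 0.787). Of the macrophage list, Cd68 held 29 to 62 counts per library and Adgre1 5 to 15. Of the mast cell or basophil list, Mcpt8 and Cpa3 each held 23 to 45 and Ms4a2 0 to 7. T and NK cells also use the NFAT genes, and the part of their markers in the results below was not tested.

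Across the 10 genes, 4 passed the test, 2 higher and 2 lower, or 40% of them, where 10.9% of all 12239 genes passed (6.04% higher and 4.84% lower). The split over all genes, 739 higher and 592 lower, moved with the scaling, to 505 and 958 with upper-quartile factors, 553 and 809 with library size only and 1328 and 637 with a length trend removed, while the 4 genes kept their directions under each. Without DMSO replicate 1 or 3 or Yoda1 replicate 1 or 2, 2 of the 10 passed, and without any other single library 3 passed. The groups did not overlap for 2 of the 10, 1 in each direction, against 15.5% of all genes (8.44% higher and 7.05% lower). The median log2 fold change was 0.036 for the 10 genes and -0.0053 for all genes tested. Each of the 4 changes was under 20% in size, and every one was seen at 710 or more counts per library, so the genes that moved were well counted.

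**Figure D1:**
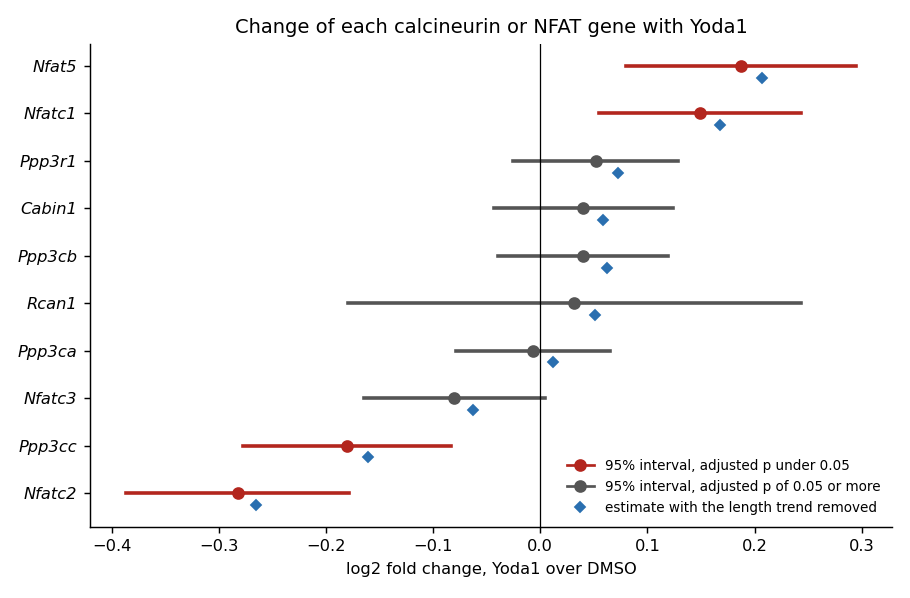
Log2 fold change of each of the 10 genes, Yoda1 over DMSO, with its 95% interval from edgeR's quasi-likelihood fit. The intervals of Nfatc2 (-0.39 to -0.18) and Ppp3cc (-0.28 to -0.084) lie below 0 and those of Nfat5 (0.080 to 0.29) and Nfatc1 (0.054 to 0.24) above it.

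The NFAT genes moved in different directions. Nfatc2, the most abundant calcium-regulated member, fell, and Nfat5 and Nfatc1 rose, while Nfatc3 did not pass the test. Nfatc2 (chr2:168476410-168601657, minus strand of GRCm38) stood at 303, 355, 348 and 342 CPM in the DMSO libraries and at 272, 304, 265 and 268 CPM in the Yoda1 libraries. The groups overlapped only where DMSO replicate 1 and Yoda1 replicate 2 met, and the other 3 DMSO libraries lay above all Yoda1 libraries. The mean went from 337 ± 23.2 to 277 ± 17.9 CPM (SD, n = 4 each), a change of -17.8% (log2 fold change -0.28, SE 0.050, edgeR quasi-likelihood adjusted p = 0.000833). In bulk RNA, fewer cells of a type and less RNA per cell cannot be told apart. It was past the threshold in all 15 alternatives planned, which included leaving out each library.

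Nfat5 (chr8:107293470-107379517, plus strand), the osmotic stress factor, was the most abundant of the 10 genes by CPM. It stood at 399, 411, 433 and 449.8 CPM with DMSO and at 508, 505, 426 and 487 CPM with Yoda1. Yoda1 replicate 3 lay inside the DMSO range, and the other 3 Yoda1 libraries were above every DMSO library. The mean went from 423 ± 22.7 to 482 ± 38.1 CPM (SD, n = 4 each), a rise of 13.9% (log2 fold change 0.19, SE 0.051, edgeR adjusted p = 0.0244). Leaving out any of 6 single libraries (DMSO replicates 1, 2 and 3 and Yoda1 replicates 1, 2 and 4) lifted the edgeR adjusted p above the threshold, to 0.0790 at the highest, with log2 fold changes from 0.16 to 0.24 over all 8.

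Nfatc1 (chr18:80606205-80713071, minus strand), the member known for an amplification loop in which NFAT drives one of its own promoters, stood at 69.7, 79.0, 77.9 and 80.0 CPM with DMSO and 84.4, 88.4, 85.6 and 81.6 CPM with Yoda1. All 4 Yoda1 libraries were above all 4 DMSO libraries, with replicate 4 of each group the nearest. The mean went from 76.7 ± 4.70 to 85.0 ± 2.82 CPM (SD, n = 4 each), a rise of 10.9% (log2 fold change 0.15, SE 0.046, edgeR adjusted p = 0.0346). This call was lost with DESeq2 (adjusted p = 0.0594), with library size as the only scaling (edgeR adjusted p = 0.0687), with upper-quartile scaling (0.0903), and without any of DMSO replicates 1 and 3 or Yoda1 replicates 1, 2 and 3 (highest edgeR adjusted p = 0.118).

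Nfatc3 (chr8:106058840-106130537, plus strand), the least changed of the calcium-regulated members detected, did not pass the test. Its values were 155, 169, 169.8 and 171 CPM with DMSO and 161, 166, 150.1 and 152 CPM with Yoda1, and the groups overlapped through DMSO replicate 1. The log2 difference was -0.080, with a 95% interval from -0.16 to 0.0044 (edgeR adjusted p = 0.226). Its annotation shares 219 bases with Esrp2 on the opposite strand, and the counting strand is not given in the sources used here, but Esrp2 itself held only 1 to 11 counts per library. The other calcium-regulated gene, Nfatc4, had 0 to 3 counts per library, so no change could be given for it.

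**Figure D2:**
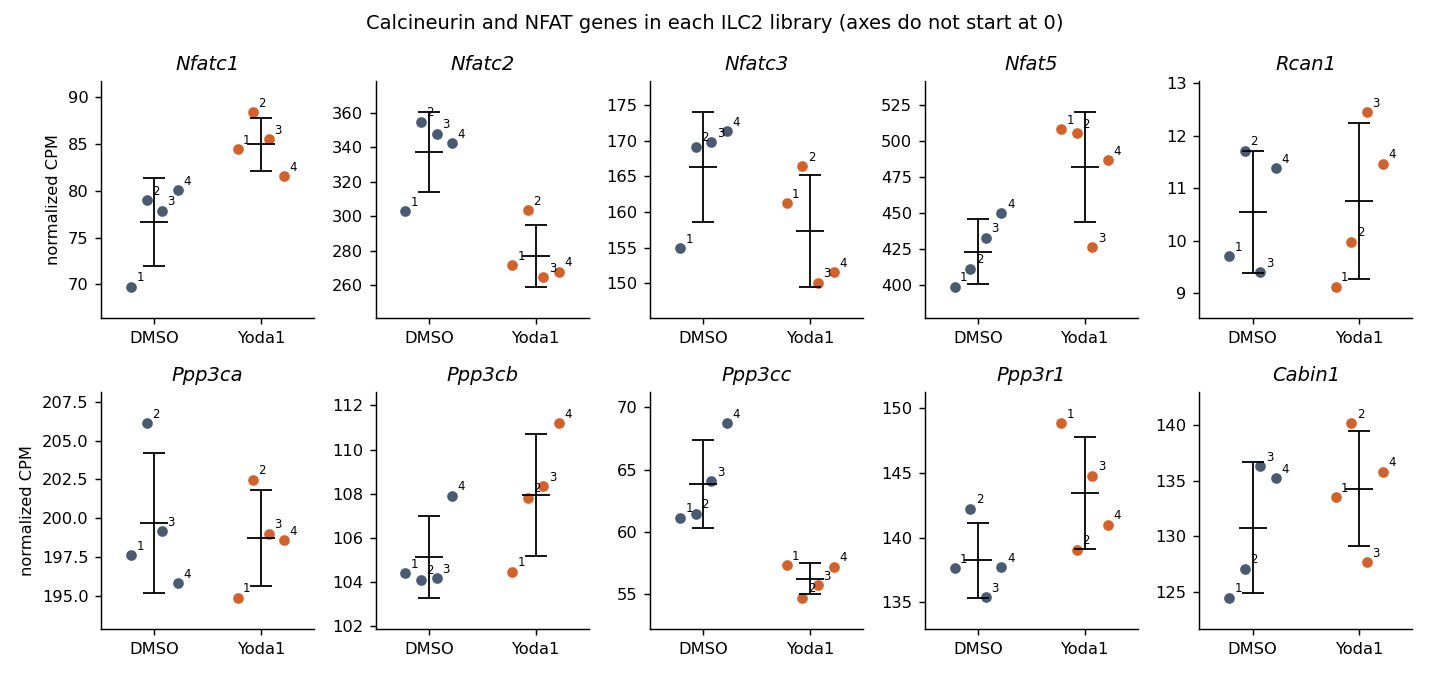
Normalized CPM of each of the 10 genes in the 4 DMSO and 4 Yoda1 libraries, 1 point per library, with the group mean and SD. The axes differ between genes and do not start at 0. Nfatc1 and Ppp3cc are the genes whose groups do not overlap, and Nfatc2 overlaps only through DMSO replicate 1 (303.1 CPM) and Yoda1 replicate 2 (303.6 CPM).

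Promoter sequence is shown for the genes of the family that moved most, Nfatc2 and Nfat5, to let their start regions be compared with that of Rcan1 further on. RefSeq windows for GRCm38.p6 were matched for 7 of the 10 genes, in 10 windows, each read 5′ to 3′ on the gene's own strand over the 250 bases before the annotated start. Both strands were searched for the NFAT core GGAAAA, which reads TTTTCC when it lies on the other strand, for the AP-1 element TGANTCA and for the cAMP response element TGACGTCA, and matches are in capitals. None of these motifs overlapped another in the windows printed. Nfatc1, Ppp3ca and Ppp3cc had no window, so their promoters were not searched.
Nfatc2, upstream start, chr2:168601658-168601907, minus strand: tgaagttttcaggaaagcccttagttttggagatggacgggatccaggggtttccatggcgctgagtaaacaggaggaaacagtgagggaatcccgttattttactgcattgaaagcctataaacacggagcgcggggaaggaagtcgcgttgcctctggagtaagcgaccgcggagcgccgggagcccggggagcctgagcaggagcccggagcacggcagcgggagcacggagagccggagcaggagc
Nfatc2, downstream start, chr2:168590366-168590615, minus strand: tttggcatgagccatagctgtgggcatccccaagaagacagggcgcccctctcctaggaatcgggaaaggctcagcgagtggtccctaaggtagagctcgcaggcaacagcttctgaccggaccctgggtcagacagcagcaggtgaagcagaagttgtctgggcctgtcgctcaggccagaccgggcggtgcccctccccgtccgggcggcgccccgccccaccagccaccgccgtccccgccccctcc
Nfat5, chr8:107293220-107293469, plus strand: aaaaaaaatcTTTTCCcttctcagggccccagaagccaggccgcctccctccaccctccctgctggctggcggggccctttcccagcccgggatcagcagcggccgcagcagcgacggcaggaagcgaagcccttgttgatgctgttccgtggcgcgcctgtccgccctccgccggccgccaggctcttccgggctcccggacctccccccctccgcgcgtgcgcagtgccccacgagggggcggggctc
Neither Nfatc2 window held any of the 3 motifs, which says only that those letters were not in these 250 bases. The Nfat5 window held 1 NFAT core, on the other strand and starting 240 bases before the start. The core was in 3 of the 10 windows of these genes and in 20.4% of the 32851 windows of all genes, so its presence in a window is common.

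Among the genes of the calcineurin enzyme, only the Ppp3cc catalytic subunit moved past the threshold. Ppp3cc (chr14:70217865-70289471, minus strand), the least abundant catalytic gene by CPM, stood at 61.2, 61.4, 64.1 and 68.7 CPM with DMSO and at 57.3, 54.7, 55.7 and 57.2 CPM with Yoda1. All Yoda1 libraries were below all DMSO libraries. The mean went from 63.9 ± 3.51 to 56.2 ± 1.24 CPM (SD, n = 4 each), a change of -11.8% (log2 fold change -0.18, SE 0.048, edgeR adjusted p = 0.0117). DMSO replicate 4 was the highest library, and without it the log2 fold change was -0.15 and the edgeR adjusted p 0.0561. An antisense gene, Gm49417, overlaps Ppp3cc by 91 bases and is not listed in the tables.

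Ppp3ca (chr3:136670124-136937727, plus strand) and Ppp3cb (chr14:20499364-20546573, minus strand), the catalytic genes with most CPM, did not pass the test. Ppp3ca stayed between 196 and 206 CPM with DMSO and between 195 and 202 CPM with Yoda1, and the 95% interval of its difference ran from -5.33% to 4.62% (edgeR adjusted p = 0.932). Ppp3cb stayed between 104 and 108 CPM with DMSO and between 104 and 111 CPM with Yoda1, with an interval from -2.71% to 8.63% (edgeR adjusted p = 0.571). The regulatory subunit gene Ppp3r1 (chr11:17159263-17200375, plus strand) ran from 135 to 142 CPM with DMSO and from 139 to 149 CPM with Yoda1. Its interval was from -1.74% to 9.32% (edgeR adjusted p = 0.421), and 462 bases of it are shared with Wdr92 on the same strand, where reads could be given to either gene. The germline B subunit gene Ppp3r2 had 0 counts in all 8 libraries.

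The inhibitors did not pass the test either. Rcan1 (chr16:92391953-92470867, minus strand), often used as a transcript readout of calcineurin activity, was the least abundant of the 10 genes, with 113 to 223 counts per library. It stood at 9.70, 11.7, 9.40 and 11.4 CPM with DMSO and 9.12, 9.98, 12.4 and 11.5 CPM with Yoda1, so Yoda1 held both the lowest and the highest library. The log2 difference was 0.032 (SE 0.10, edgeR adjusted p = 0.891) with a 95% interval from -11.7% to 18.3%, wider than that of the more abundant genes, and its sign turned without DMSO replicate 1 or 3 or Yoda1 replicate 3 or 4 (log2 difference down to -0.033). Cabin1 (chr10:75646112-75764341, minus strand), a large nuclear inhibitor, ran from 124 to 136 CPM with DMSO and from 128 to 140.2 CPM with Yoda1, with an interval from -2.95% to 8.96% (edgeR adjusted p = 0.589). Of the related genes, Rcan3 went from 54.0 ± 2.68 to 50.5 ± 2.40 CPM (edgeR adjusted p = 0.247) and Rcan2 held 0 to 3 counts.

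Rcan1 has 2 annotated RefSeq starts, and the counts do not separate their transcripts. Both windows are shown because the downstream one carries the motifs of all 3 kinds, the only window of these genes to do so.
Rcan1, downstream start, chr16:92400079-92400328, minus strand: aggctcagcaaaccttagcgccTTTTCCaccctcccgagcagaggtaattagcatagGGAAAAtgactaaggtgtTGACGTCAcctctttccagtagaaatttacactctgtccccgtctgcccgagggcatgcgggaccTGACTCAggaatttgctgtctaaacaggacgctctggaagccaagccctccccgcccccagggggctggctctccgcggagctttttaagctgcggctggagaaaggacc
Rcan1, upstream start, chr16:92466170-92466419, minus strand: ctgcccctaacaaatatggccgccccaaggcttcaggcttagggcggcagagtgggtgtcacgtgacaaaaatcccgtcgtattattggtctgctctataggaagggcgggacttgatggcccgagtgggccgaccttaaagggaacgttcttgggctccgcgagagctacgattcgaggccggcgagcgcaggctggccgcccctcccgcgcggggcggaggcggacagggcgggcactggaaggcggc
The downstream window held 2 NFAT cores, starting 228 and 193 bases before the start, 1 cAMP response element at 175 bases and 1 AP-1 element at 110 bases. Among all 32851 windows, 6.75% held the AP-1 letters, 1.55% the cAMP response element, and 4 windows (0.0122%) held all 3. The upstream window held none of the 3. A match of letters is a description, not a binding site, and the Rcan1 count did not differ detectably between the groups.

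Because the genes moved in both directions, the balance between family members was compared inside each library, where the library's scaling cancels. Of 10 ratios, 7 separated the groups completely, each with the smallest p that 4 samples against 4 allow (two-sided exact permutation test, p = 0.0286, Benjamini-Hochberg adjusted p = 0.0408 over the 10 ratios). Each of these 7 holds a gene already called on the same counts, so the ratios restate those changes and are no further evidence. The ratios also share genes, and the adjusted p passes only because several of them reach the smallest p together. The log2 ratio of Nfatc1 to Nfatc2 was -2.11, -2.16, -2.15 and -2.09 with DMSO and -1.68, -1.77, -1.62 and -1.71 with Yoda1, a difference of 0.43. The log2 ratio of Nfatc2 to Nfat5 was -0.40, -0.21, -0.32 and -0.39 with DMSO and -0.90, -0.73, -0.69 and -0.86 with Yoda1, a difference of -0.47. Nfatc2 thus lost ground to both other members that moved. It also lost ground to Nfatc3 (difference -0.20), while Nfatc1 gained on Nfatc3 (0.23) and Nfatc3 fell back against Nfat5 (-0.26).

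The ratio of Nfatc1 to Nfat5, the members that both rose, differed by -0.035, and the groups overlapped (exact permutation p = 0.571). Among the catalytic genes, Ppp3ca to Ppp3cc differed by 0.17 and Ppp3cb to Ppp3cc by 0.22, both with complete separation. Ppp3ca to Ppp3cb differed by -0.044 (exact permutation p = 0.200, adjusted 0.222). The summed catalytic genes against Ppp3r1 differed by -0.075 (exact permutation p = 0.0571, adjusted 0.0714), which did not pass.

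Levels between genes were compared per kb of exon, the union of annotated exons. By the mean of 8 libraries the order was Ppp3r1 at 43.6 CPM per kb, Nfatc2 at 29.0, Nfat5 at 24.6, Ppp3cc at 20.1, Ppp3ca at 19.96, Nfatc3 at 13.8, Ppp3cb at 12.1, Cabin1 at 10.9, Nfatc1 at 10.8 and Rcan1 at 3.45. The regulatory subunit was thus above every catalytic gene, and Rcan1 was 12.6-fold below it. Neighbours whose libraries overlapped were Nfatc2 and Nfat5, Nfat5 and Ppp3cc, Ppp3cc and Ppp3ca, and Cabin1 and Nfatc1. This order is of means over both groups. With Yoda1 alone, Nfat5 (26.21 CPM per kb) stood level with Nfatc2 (26.19), and Ppp3ca and Nfatc1 stood above Ppp3cc and Cabin1. The order also depends on the length used. Per kb of the longest transcript, Ppp3ca stood at 41.9 CPM per kb, behind only Ppp3r1 and Nfatc2, and Ppp3cc at 24.1, with Ppp3r1 at 49.3, Nfatc2 at 45.0 and Rcan1 last at 4.58. On that scale the libraries of Ppp3r1 and Nfatc2 overlapped, and Nfatc2 had the higher mean with DMSO (49.4 against 48.3).

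On the same scale per kb of exon, Nfatc2 made up 40.1% ± 1.01 (SD, n = 4) of the summed NFAT level with DMSO and 33.9% ± 0.980 with Yoda1. Nfat5 made up 29.0% ± 0.999 and then 33.9% ± 1.52, so with Yoda1 both stood at the same share on this scale. The share of Nfatc1 was 12.9% ± 0.139 and then 14.8% ± 0.694, and that of Nfatc3 17.9% ± 0.160 and then 17.4% ± 0.262. Among the catalytic genes, Ppp3cc held 40.1% ± 1.39 and then 36.9% ± 0.801, Ppp3ca 37.5% ± 1.34 and then 39.0% ± 0.638, and Ppp3cb 22.4% ± 0.237 and then 24.02% ± 0.417. Per kb of the longest transcript Ppp3ca led in both groups (44.2% and 45.2%) and Ppp3cc was last (26.9% and 24.4%), and Nfatc2 went from 39.6% to 33.7% of the NFAT sum, with Nfat5 below it in both groups (25.3% and 29.7%).

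**Figure D3:**
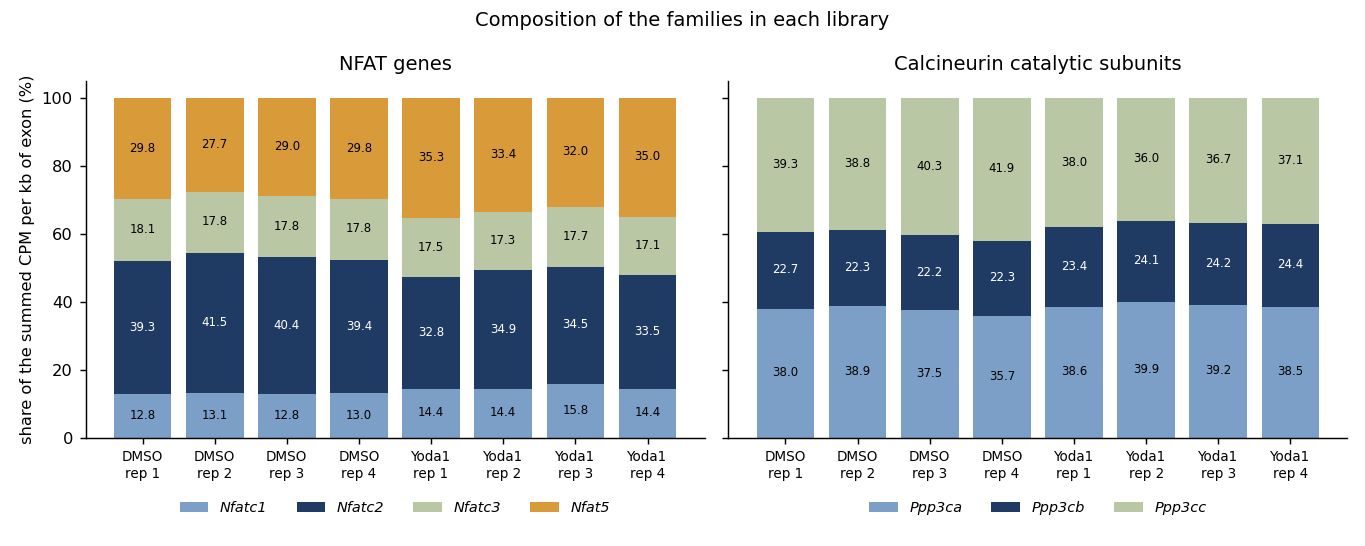
Share of each gene in the summed CPM per kb of exon of the NFAT genes and of the calcineurin catalytic genes, 1 bar per library, in percent. In the Yoda1 libraries Nfatc2 takes 32.8% to 34.9% of the NFAT sum, against 39.3% to 41.5% in the DMSO libraries.

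Part of the spread within groups followed transcript length. In each library the median deviation of the fifth of genes with the longest transcripts was set against that of the shortest, and the log2 difference ran from -0.12 (DMSO replicate 1) to 0.085 (DMSO replicate 3), with -0.11 in Yoda1 replicate 3 and 0.079 in Yoda1 replicate 2. Each group thus held libraries on both sides of 0, and the median log2 fold change of Yoda1 over DMSO in the length classes stayed between -0.010 and 0.011. The libraries at the low end, DMSO replicate 1 and Yoda1 replicate 3, were the lowest of their group for Nfatc2 and Nfat5. For Nfatc1 and Ppp3cc DMSO replicate 1 was again the lowest, but the lowest Yoda1 libraries were replicates 4 and 2. The NFAT transcripts are long, with 13443 bases for the longest of Nfat5 and 6828 for that of Nfatc2. With each library's trend on length removed, an alternative chosen after seeing the data, the same 4 genes were called, with log2 fold changes of -0.27 for Nfatc2, 0.21 for Nfat5, 0.17 for Nfatc1 and -0.16 for Ppp3cc (edgeR adjusted p from 3.38e-08 to 0.0121). In that fit 1965 of 11753 genes tested were called, against 1331 of 12239 in the reported fit, so calls rose over all genes too. With the trend removed, Nfatc1, Nfatc2 and Nfat5 stayed past the threshold with any single library left out. Ppp3cc did so in 7 of 8 such fits, the exception being without DMSO replicate 4 (edgeR adjusted p = 0.0769). Between 1481 and 1920 of all genes were called in those 8 fits. Cabin1 was called as well when GC content was removed together with length (0.093, edgeR adjusted p = 0.0493). The cause of the length trend was not tested.

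**Figure D4:**
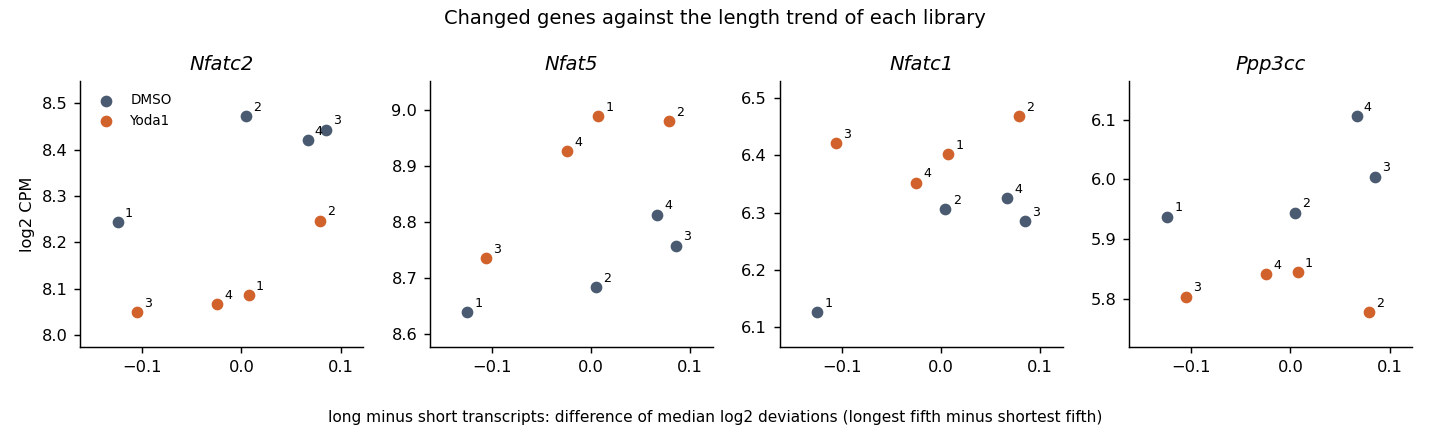
Log2 CPM of the 4 changed genes in each library against the library's length trend (median log2 deviation of genes with the longest transcripts minus that of genes with the shortest), with DMSO and Yoda1 libraries in different colours. DMSO replicate 1 (-0.12) and Yoda1 replicate 3 (-0.11) lie at the left and are the lowest of their groups for Nfatc2 and Nfat5. For Nfatc1 and Ppp3cc the lowest Yoda1 libraries are replicates 4 and 2.

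In the lists other than the 10 genes and the NFAT targets, 48 pathway genes were tested, with Irf4 also in the target list. Of the 48, 4 were higher and 3 lower, or 14.6% against 10.9% of all genes, with a median log2 fold change of -0.0071. Of 13 genes that bring calcium to calcineurin, 1 rose and 1 fell (15.4%). Orai1, the pore of the store-operated calcium channel, went from 30.1 ± 2.54 to 34.7 ± 1.64 CPM (log2 fold change 0.20, edgeR adjusted p = 0.0362), a call lost with DESeq2 (adjusted p = 0.0565). Plcg2, a phospholipase that makes the messenger IP3, went from 89.7 ± 5.06 to 77.6 ± 1.54 CPM (log2 fold change -0.21, edgeR adjusted p = 0.00195). The store sensors Stim1 and Stim2 and the calmodulin genes did not pass. Of these, Stim2 (log2 fold change 0.13, edgeR adjusted p = 0.0574) and Calm3 (-0.12, edgeR adjusted p = 0.0532) lay nearest the threshold. Stim1 lay farthest from it (edgeR adjusted p = 0.997). Of the 13 genes, 7 had an unadjusted edgeR p under 0.05.

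Of 10 kinases that put phosphate back on NFAT, 0 were called by edgeR, DESeq2 or limma-voom and 2 had an unadjusted p under 0.05, with log2 differences from -0.091 to 0.13. Of 6 calcineurin-binding proteins and immunophilins, the targets of cyclosporin and FK506 among them, 0 were called by any of the 3 tools. Of these 6, 2 had an unadjusted p under 0.05. Their log2 differences ran from -0.54 (Akap5, 6 to 27 counts per library) to 0.10 (Chp1). The groups did not overlap for Akap5 and Chp1, as for 15.5% of all genes. Among all 12239 genes ranked by edgeR p, Nfatc1 (unadjusted p = 0.00309) stood at 1092 and Nfatc3 (0.0624) at 3376. An unadjusted p under 0.05 was thus common over all genes. The counts of such p-values in these and the other lists were not tested against that background. Among 4 shuttling genes tested, Xpo1, the exportin that carries NFAT out of the nucleus, fell from 167 ± 6.64 to 145 ± 6.47 CPM (log2 fold change -0.20, edgeR adjusted p = 0.00112).

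Of 14 nuclear partners of NFAT, 3 rose and 1 fell (28.6%, against 10.9% of all genes). Fosb, an AP-1 subunit, went from 2.35 ± 0.763 to 5.93 ± 0.788 CPM (log2 fold change 1.34, edgeR adjusted p = 3.28e-06), on 22 to 120 counts per library. Jun, its dimer partner, went from 34.5 ± 2.99 to 47.0 ± 2.71 CPM (log2 fold change 0.44, edgeR adjusted p = 4.41e-06). Mef2d rose by 0.18 on the log2 scale and Maf fell by 0.13. Of the 14 partners, 9 had an unadjusted edgeR p under 0.05, as had 2 of the 4 shuttling genes.

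Genes known as NFAT targets in lymphocytes were set beside the family. Of 35 such genes, 33 were tested, 22 were higher and 1 was lower, where 6.04% of all genes were higher and 4.84% lower, with a median log2 fold change of 0.32. For 21 of them the Yoda1 libraries were all above the DMSO libraries, as for 8.44% of all genes, and for 0 all below, as for 7.05%. The list was drawn up with earlier results of these libraries known and holds Nfatc1 and Rcan1 as well, so its direction is no independent evidence. Egr3, an early response transcription factor, went from 12.4 ± 2.20 to 32.2 ± 1.21 CPM, and Egr2 from 6.21 ± 1.27 to 16.1 ± 1.73 CPM (log2 fold changes 1.39 and 1.38, edgeR adjusted p = 6.31e-13 and 9.96e-10). The chemokine Ccl1 went from 8.06 ± 1.27 to 21.8 ± 1.28 CPM and the cytokine Ifng from 106 ± 10.4 to 268 ± 12.1 CPM (log2 fold changes 1.44 and 1.35, edgeR adjusted p = 1.26e-12 and 1.08e-11).

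Nr4a1, an orphan nuclear receptor induced by calcium, rose from 28.9 ± 1.34 to 48.4 ± 1.76 CPM, and the inhibitory receptor gene Havcr2 from 56.9 ± 4.13 to 83.2 ± 1.87 CPM (log2 fold changes 0.75 and 0.55, edgeR adjusted p = 2.36e-11 and 1.42e-09). Il9 was the 1 lower gene, from 13.0 ± 0.945 to 10.7 ± 1.23 CPM with overlapping groups (log2 fold change -0.29, edgeR adjusted p = 0.0465), a call lost with DESeq2 and limma-voom. The genes named here are those with the smallest p, and the log2 fold changes of the 22 higher targets ran from 0.14 to 2.01.

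**Figure D5:**
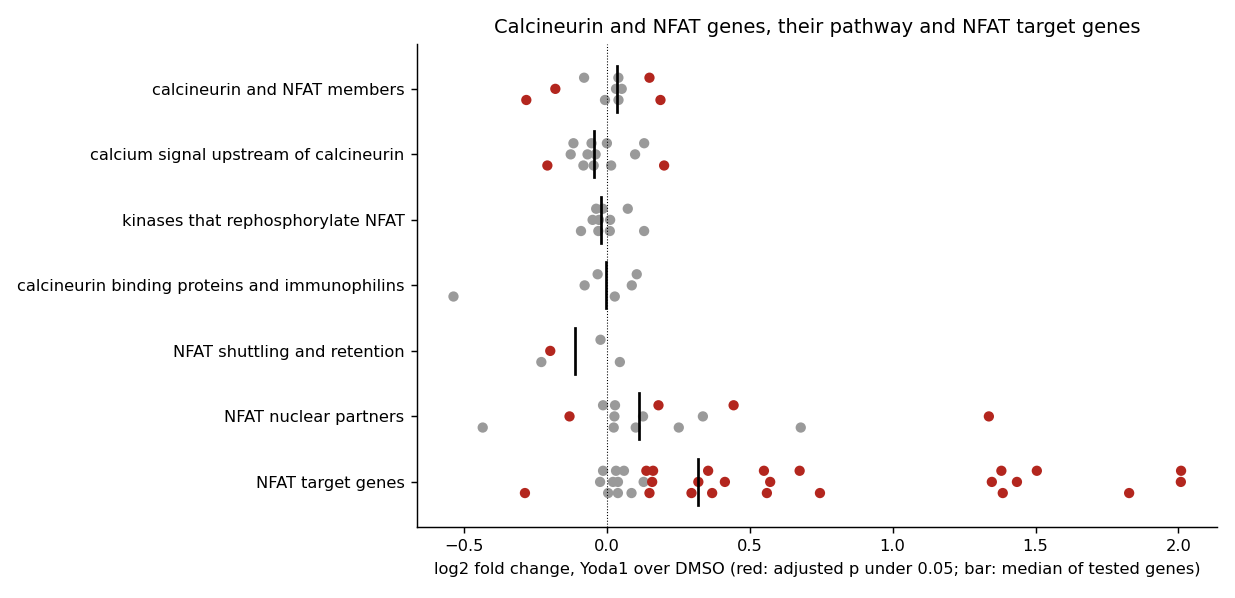
Log2 fold change, Yoda1 over DMSO, of each tested gene of the 10 calcineurin and NFAT genes, of the pathway lists and of the NFAT target list, 1 point per gene, in red where edgeR's adjusted p is under 0.05, with a bar at the list median. The targets have a median of 0.32, and the medians of the pathway lists lie between -0.11 and 0.11.

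The genes whose level ran most like that of Nfatc2 over the 8 libraries were Chd7 (Pearson r = 0.987), Lef1 (0.987), Tle3 (0.985), Mylk (0.984) and Actb (0.983), out of 12238 genes compared. Those that ran most opposite were Tmem55b (-0.986), Cmpk1 (-0.980), Casp4 (-0.977), Tor1a (-0.975) and Rps27rt (-0.975). The points share the 2 groups and the length trend of the libraries, so the values describe these libraries alone. Within groups, the deviations of Nfatc2 from its group means ran with those of Nfatc3 (r = 0.90) and Nfatc1 (r = 0.86) over the same 8 libraries.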

How the data were processed

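Poly(A) RNA of 8 cultured lung ILC2 samples was sequenced on a NovaSeq instrument from libraries of a directional kit. The authors deposited raw counts of reads per gene symbol for each library, without normalization. BBMap (after FastQC and FASTX Trimmer) and Cufflinks with Cuffdiff are in the study's methods, and TopHat and mm10 in the submitters' notes; which tool gave the counts, its annotation and its strand setting are not given in the sources used here. Genes were filtered with filterByExpr (minimum count 10, minimum total 15), scaled with TMM and compared with edgeR 4.0.16 (R 4.3.3) by the quasi-likelihood test, with p-values adjusted by Benjamini-Hochberg over all 12239 genes and a threshold of 0.05. CPM correlations used a prior count of 2. Ratios within libraries used log2 of normalized CPM with 0.5 CPM added and a two-sided exact permutation test over 70 assignments (scipy 1.17.1). Gene lengths and positions came from GENCODE M21 (GRCm38), with 95.4% of symbols matched to 1 gene, and promoters from RefSeq. Depth per library was 12438009 to 19534653 counts; the floor of 3 counts, at or under which no fold is given, covers counting error only.

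The genes named are the 10 family genes, Nfatc4, Ppp3r2, Rcan2 and Rcan3, up to 4 genes per direction with the smallest p in each pathway list (6 for NFAT targets), and the 5 genes most like and most unlike the member with the smallest p. The genes and lists were chosen with earlier results of these data known. Alternatives were DESeq2 1.42.0, limma-voom (limma 3.58.1), scaling by upper-quartile factors or by library size alone, a filter of at least 10 counts in every sample or none, a block for the replicate number, and fits without each of the 8 libraries, plus removal of length and GC trends, added after seeing the data. With all 8 libraries, the fits with these trends removed tested 11753 genes. The edgeR test was first tested on simulated data. The summed level of the B cell list is not reported here.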

Additional observations from a re-analysis of the deposited data

Results flagged for a closer look

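Of 42 groups of 4 libraries examined (each gene's normalized CPM and each log2 ratio in each group), 3 held a library whose distance from the nearest of the others took up more of the group's range than Dixon's critical value for 4 samples, where chance alone gives about 2.1. For Nfatc3, DMSO replicate 1 stood at 155 CPM and the next library at 169 CPM. For Ppp3cb, DMSO replicate 4 stood at 108 CPM and the next at 104 CPM. For the log2 ratio of Ppp3cb to Ppp3cc, Yoda1 replicate 1 stood at 0.86 and the next at 0.95, still above every DMSO library.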

How the results depend on the processing

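Over the 15 alternatives that change the scaling, filter, tool or samples, the 4 changed genes kept their direction, and the number of the 10 genes called ran from 2 to 3 with a library left out (3 to 4 with the length trend removed as well), and was 3 with DESeq2, library size only, upper-quartile factors or the block, and 4 with the rest, with 5 when length and GC trends were removed. Nfatc2 kept its call throughout, and Ppp3cc in all but the fits without DMSO replicate 4, with or without the length trend. Signs turned only for values near 0: Ppp3ca with the length trend removed (0.012), Ppp3ca with a library left out (-0.016 to 0.0089, where the reported value is -0.0069) and Rcan1 with a library left out (-0.033 to 0.093). With both the length trend and a library taken out, the turned values of Ppp3ca were 0.0019, 0.0043, 0.0053, 0.0095, 0.010, 0.015, 0.022 and 0.027, and that of Rcan1 was -0.011 without Yoda1 replicate 3. Over all genes, 1331 were called in the reported fit and 893 to 1920 with a library left out, with or without the length trend, with 519 to 1296 higher (1206 and 1227 in the other fits that took out both and moved the count by over 1.5 times) and 367 to 677 lower. Upper-quartile factors gave 505 higher and 958 lower, library size only 553 and 809, removal of the length trend 1328 and 637, and of length and GC 1378 and 641 (2019 called). Fewer samples and other scaling are part of those settings' construction; other causes were not tested. The NFAT targets called higher ran from 21 to 25 with a library left out, and the 1 called lower (Il9) from 0 to 1, with 0 under DESeq2, limma-voom and the replicate block. The deviations of same-numbered replicates over all genes were barely correlated (0.048, 0.071, -0.028 and 0.00023). Such values cannot tell whether they shared a mouse, a culture or a batch, which the sources do not say. With the replicate number as a block, 966 genes were called (548 higher, 418 lower), and Nfatc1 had an edgeR adjusted p of 0.0618. For the ratios, no fit with a library left out or the pairing used could reach the threshold. Rcan1, with 113 to 223 counts, is the gene whose change depth limits most.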
